A study of Homo sapiens with 10 samples.

Results

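MDA-MB-231 is an established human breast cancer cell line of the triple-negative, basal B kind, whose cells are mesenchymal in shape. Dasatinib is a kinase inhibitor of the SRC family and ABL that also binds further tyrosine kinases. The comparison described here sets 24 h of dasatinib against 6 h and asks how the transcriptome moved between an early and a middle time under the drug. It rests on 4 of the 10 RNA-seq libraries of the study, chosen by their labels: 2 biological replicates collected 24 h after the start of 100 nM dasatinib and 2 collected 6 h after it. All were made from wild-type cells of the same line. The remaining 6 libraries, 2 each at 0, 12 and 48 h, entered no test of this comparison and are given only as levels. Those given as 0 h are titled Sham while their treatment label names dasatinib, and they were taken as 0 h from the title. The labels call the replicates biological, but whether they came from separate cultures is not given, so the p-values measure the spread between these libraries. No untreated cells of 6 h or 24 h were analysed, so time under the drug and time in culture cannot be told apart.

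The libraries held 49133774 and 41693920 counts in genes at 24 h, against 43432997 and 46592728 counts at 6 h. A level is given as CPM, counts scaled to a common library size by TMM over the 10 libraries, and a difference as the log2 difference of 24 h minus 6 h from edgeR's quasi-likelihood test on the counts of the 4 libraries, with its standard error (SE) and a p-value adjusted over all genes tested by the Benjamini-Hochberg method. A gene is said to have changed where the adjusted p was under 0.05. CPM does not correct for gene length, so levels are compared between libraries and not between genes. Line identity was read from markers. *VIM*, the mesenchymal intermediate filament vimentin, had 1050.2 and 969 CPM at 24 h, against 1222 and 1208 CPM at 6 h, and *CD44*, the hyaluronan receptor, had 253 and 234 CPM at 24 h, against 426 and 443 CPM at 6 h. *CDH1* (E-cadherin) and *PGR* (progesterone receptor) had 0 counts in all 4 libraries, which allows up to 3 counts in each, and *ESR1* (oestrogen receptor) stayed at or below 0.438 CPM. These levels are those of a mesenchymal line with little hormone receptor RNA.

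A cell that stops dividing withdraws first the transcription of S phase genes, which E2F factors drive and which pocket proteins hold down, and later that of mitotic genes. SRC family kinases feed the RAS-ERK cascade, the actin cytoskeleton and, through it, the YAP and SRF coactivators. ERK signaling raises its own phosphatases, and FOXO factors are active when growth factor signaling is low. These links are general background and were not measured here.

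Of 14831 genes tested, 6885 (46.4%) changed between 6 h and 24 h. Of these, 3391 genes (22.9% of those tested) were higher at 24 h and 3494 (23.6%) were lower. The changes were near even in number and uneven in size. At least 2-fold changes were reached by 907 genes that were higher and 391 that were lower, and at least 8-fold changes by 81 and 15. The median difference was 0.61 among genes that rose and -0.49 among genes that fell. Both 24 h libraries lay beyond both 6 h libraries for 10646 genes (71.8%), so separation of the libraries alone marks nothing. Replicates of a time correlated at 0.9955 at 24 h and 0.9961 at 6 h across genes, and libraries of different times at 0.9815 to 0.9821, a description over genes that share each library. Because the RNA is from bulk cultures, fewer cells of a state and less RNA per cell cannot be told apart. With all 10 libraries in the fit the count fell to 2933 genes, 1416 higher and 1517 lower.

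**Figure D1:**
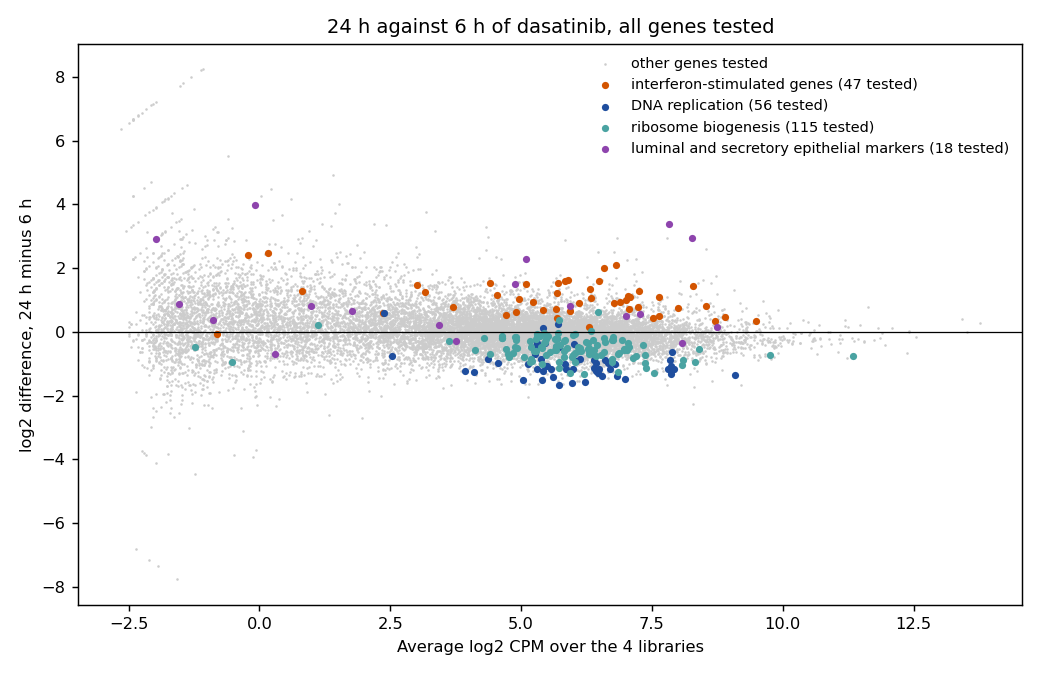
Each point is a gene, with its average log2 CPM over the 4 libraries on the x axis and its log2 difference of 24 h minus 6 h on the y axis. Interferon-stimulated genes lie above 0 with 1 exception among 47 tested and DNA replication genes lie below it with 3 exceptions among 56, and the fans of points at the left are genes near 0 counts in some libraries.

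Among changed genes whose average log2 CPM reached 2 and whose libraries were apart by time, the largest rise was that of *ENPP2*. This gene, which encodes autotaxin, the secreted enzyme that makes lysophosphatidic acid, had 13.8 and 19.6 CPM at 24 h, against 1.35 and 1.12 CPM at 6 h. *MUC5B*, a gel-forming mucin, had 379.9 and 447 CPM at 24 h, against 36.3 and 43.4 CPM at 6 h. *MUC5AC*, its neighbour in the mucin cluster, had 540.0 and 537 CPM at 24 h, against 66.2 and 73.0 CPM at 6 h. In each of the 3 genes the gap between the times was larger than that between replicates. That the libraries were apart at all was a condition of the rule. The fitted differences were 3.76 for *ENPP2* (SE 0.21, adjusted p = 1.32e-19), 3.38 for *MUC5B* (SE 0.10, adjusted p = 2.25e-27) and 2.96 for *MUC5AC* (SE 0.09, adjusted p = 1.66e-30). *ITGB4*, the integrin beta chain of hemidesmosomes that binds laminin, had 402 and 375 CPM at 24 h, against 42.8 and 59.2 CPM at 6 h. *CEMIP*, a hyaluronan-degrading protein, had 197 and 204 CPM at 24 h, against 24.9 and 27.6 CPM at 6 h. Both rose about as much (2.93 and 2.94), and the 6 h replicates of *ITGB4* were less close to each other than those of *CEMIP*. The remaining 5 of the 10 largest rises were *SLITRK6*, a neuronal transmembrane protein (3.37), *KLRC2*, known as a natural killer cell receptor (3.36), *RAB17*, an epithelial trafficking GTPase (3.29), *SNED1*, a matrix glycoprotein (3.16), and *ATP8A1*, a phospholipid flippase (2.98). *KLRC2* was low, at 8.89 and 10.1 CPM at 24 h, against 0.999 and 0.851 CPM at 6 h, and shares sequence with its paralogs, so its reads may be split among them. Of 18 haematopoietic markers 3 passed the filter on low counts, and the summed share of all 18 was 0.0004% of counts in each 24 h library, against 0.0001% and 0.0002% in the 6 h libraries. The part of these markers in the result was not tested.

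By the same rule the largest fall was that of *IL11*. This gene, which encodes a cytokine of the IL-6 family, had 103 and 109 CPM at 24 h, against 496 and 529 CPM at 6 h. *ODC1*, the enzyme that opens polyamine synthesis, had 141 and 147 CPM at 24 h, against 480.3 and 487 CPM at 6 h. *SLC7A5*, the light chain of the LAT1 amino acid transporter, had 295 and 261 CPM at 24 h, against 803 and 969 CPM at 6 h. All 24 h libraries were well below all 6 h libraries, and the fitted falls were 2.27 (SE 0.09), 1.74 (SE 0.08) and 1.67 (SE 0.09) on the log2 scale, with adjusted p-values of 5.58e-27, 9.83e-23 and 2.79e-19. *SLC3A2*, the heavy chain that pairs with *SLC7A5*, also fell, by 1.24 on that scale. *AOX1*, an aldehyde oxidase, had 13.4 and 13.5 CPM at 24 h, against 53.9 and 58.7 CPM at 6 h. *PEAR1*, a receptor of endothelial cells and platelets, had 2.07 and 1.86 CPM at 24 h, against 8.62 and 7.39 CPM at 6 h, and the long noncoding RNA *CASC8* had 1.37 and 2.30 CPM at 24 h, against 7.92 and 5.44 CPM at 6 h. These 3 genes were low or moderate in level, with differences of -2.06, -2.02 and -1.87. Separation by time was a condition of the rule, so it adds nothing for the genes named here. Another 3 of the 10 largest falls were the cell cycle genes *MYBL2* (-1.67), *CCNE2* (-1.67) and *MCM10* (-1.66).

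**Figure D2:**
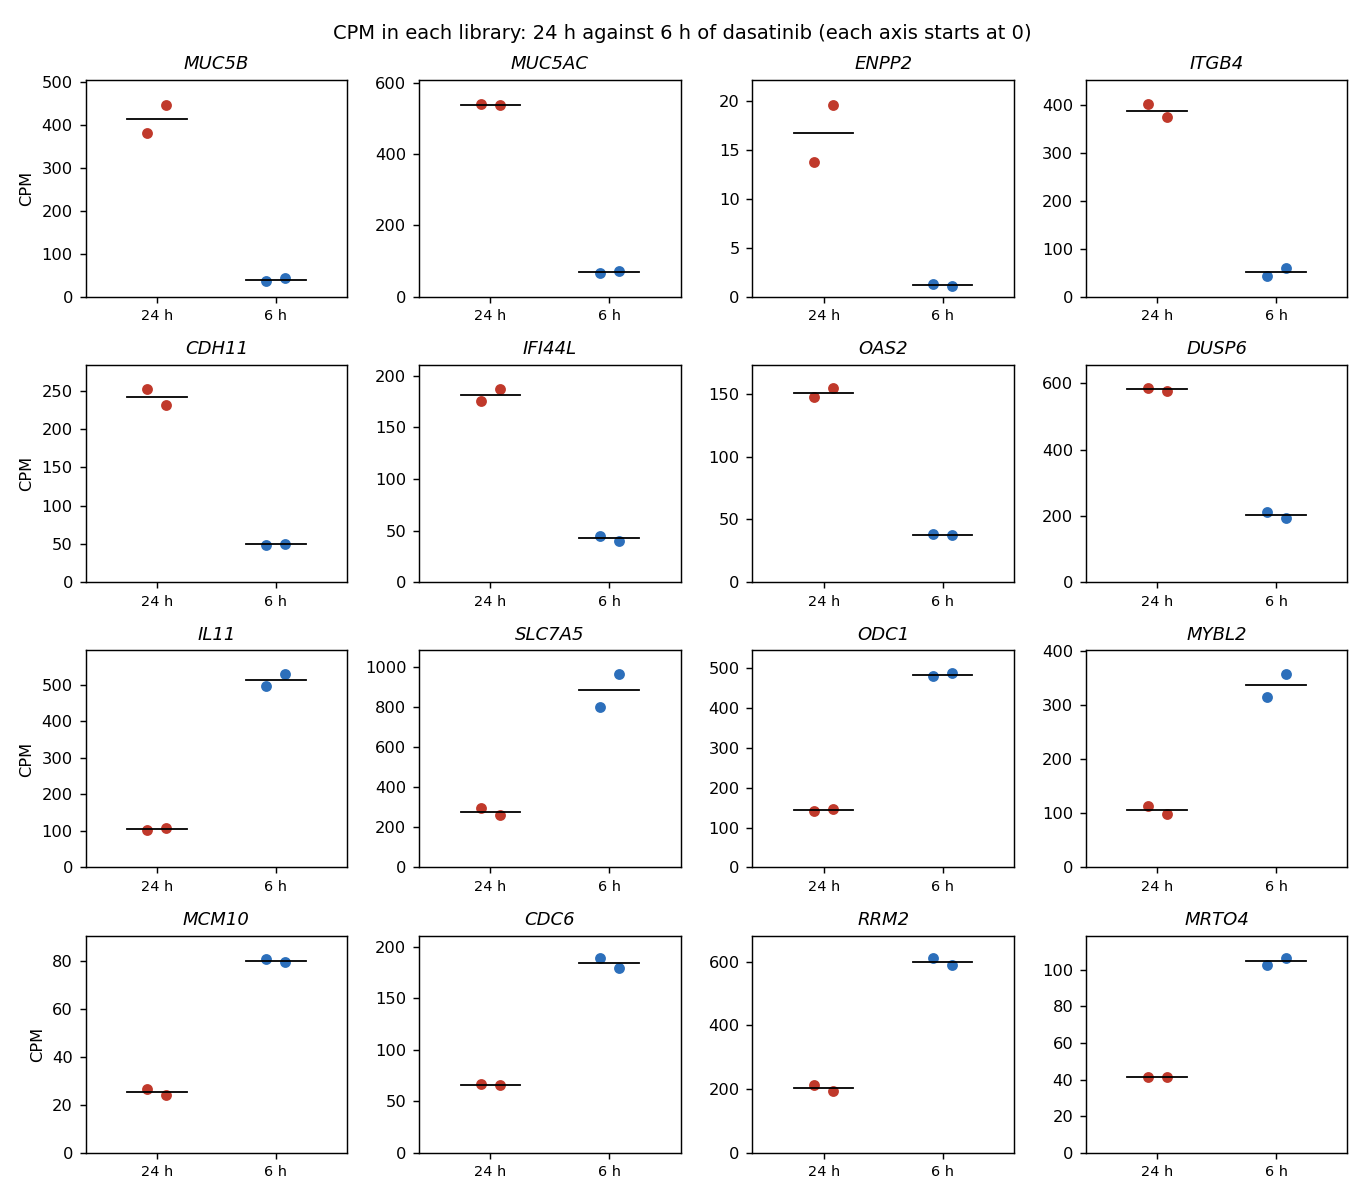
CPM of 16 genes in each library, with 24 h on the left and 6 h on the right of each panel, points for the 2 replicates and a bar for their mean. No panel shows an overlap between the times, and the 8 genes of the upper panels are higher at 24 h while the 8 genes of the lower panels are lower.

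Genes of DNA replication fell almost as a whole. Of 56 members tested, 53 were lower at 24 h and 2 were higher, with a median difference of -1.06, against 23.6% lower and a median of 0.01 over all genes. *CDC6*, which loads the MCM helicase at origins, had 66.5 and 66.1 CPM at 24 h, against 189 and 179 CPM at 6 h. *MCM10*, which acts where the helicase is switched on, had 26.8 and 24.0 CPM at 24 h, against 81.1 and 79.5 CPM at 6 h. *CLSPN*, the fork protein claspin, had 35.0 and 39.0 CPM at 24 h, against 114 and 108 CPM at 6 h. In every one of these genes the 24 h libraries lay below the 6 h libraries by more than the gap between replicates, with differences of -1.47 (SE 0.08, adjusted p = 5.76e-20), -1.66 (SE 0.10) and -1.58 (SE 0.09). The helicase subunits *MCM2* and *MCM7*, the clamp *PCNA* and the helicase cofactor *CDC45* fell by 1.38, 1.35, 1.32 and 1.59 on the log2 scale. The members that were higher were *POLD4*, the small subunit of polymerase delta (5.89 and 6.39 CPM at 24 h, against 4.13 and 3.96 CPM at 6 h), and *ORC4*, a subunit of the origin recognition complex (60.9 and 51.9 CPM at 24 h, against 46.3 and 49.04 CPM at 6 h). Those rises were small (0.60 and 0.25), and without 1 of the 4 libraries, whichever it was, no more than 1 of the pair stayed past the threshold. The count of members that fell was 47 to 53 across the alternatives.

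Enzymes of deoxynucleotide synthesis and repair genes moved the same way. Of 13 genes of deoxynucleotide synthesis, 12 fell and 1 rose (median -0.75). *RRM2*, the S phase subunit of ribonucleotide reductase, had 213 and 194 CPM at 24 h, against 610.1 and 588 CPM at 6 h, and its large subunit *RRM1* had 115 and 106 CPM at 24 h, against 217 and 225 CPM at 6 h. *RRM2B*, the subunit that p53 induces outside S phase, had 72.1 and 57.5 CPM at 24 h, against 47.6 and 45.4 CPM at 6 h. The subunits thus parted: *RRM2* fell by 1.55 and *RRM1* by 0.99 on the log2 scale while *RRM2B* rose by 0.48. For *RRM2* and *RRM1* the gap between the times was beyond the spread between replicates. The 24 h replicates of *RRM2B* were further apart than its nearest libraries of the 2 times. *CTPS1*, which makes CTP, fell by 1.22 on that scale. Among 31 genes of recombination and Fanconi repair, 28 fell and 1 rose (median -0.82). The recombination gene *XRCC2* had 10.4 and 13.5 CPM at 24 h, against 37.1 and 36.9 CPM at 6 h, the exonuclease *EXO1* had 30.7 and 29.3 CPM at 24 h, against 89.2 and 93.5 CPM at 6 h, and the Fanconi core subunit *FANCA* had 45.6 and 47.4 CPM at 24 h, against 118 and 112 CPM at 6 h. No library of one time reached the levels of the other in these genes, and the falls were 1.63, 1.60 and 1.30 on the log2 scale.

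Genes of the E2F, MYBL2 and FOXM1 group were lower as well. Among 20 genes of E2F, MYBL2 and FOXM1 factors with pocket proteins, 14 were lower and 2 higher (median -0.60). *E2F1*, an activator, had 46.1 and 50.5 CPM at 24 h, against 122 and 129 CPM at 6 h, and *MYBL2*, which works with the DREAM complex members at mitotic promoters, had 112 and 98.4 CPM at 24 h, against 315 and 358 CPM at 6 h. *E2F8*, a repressor that is itself an E2F target, had 19.7 and 21.0 CPM at 24 h, against 50.4 and 51.2 CPM at 6 h. The members that rose were *RBL2*, the pocket protein p130 of resting cells (log2 difference 0.98, SE 0.10, adjusted p = 2.07e-11), and *E2F5*, a repressor E2F (log2 difference 0.72, SE 0.14, adjusted p = 3.46e-05). Of 10 G1 cyclins and CDKs, 7 fell and none rose by edgeR (median -0.95). *CCNE2*, cyclin E2, had 5.77 and 6.18 CPM at 24 h, against 18.9 and 19.1 CPM at 6 h, *CDK4* had 59.3 and 68.2 CPM at 24 h, against 118 and 135 CPM at 6 h, and the CDK phosphatase *CDC25A* had 26.0 and 19.9 CPM at 24 h, against 56.9 and 66.7 CPM at 6 h. Their differences were -1.67, -0.98 and -1.42, with replicates apart by far less than the times.

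The promoters of *CDC6* and *E2F1* are shown because both genes fell and both windows hold the E2F and CCAAT letters searched. Each window runs from 250 bases before to 50 bases after the RefSeq start, on GRCh38.p14, the build the files also use. *CDC6* is at chr17:40287629-40287928, plus strand and *E2F1* at chr20:33686336-33686635, minus strand. Capitals mark TTTNNCGC (E2F) and CCAAT (the NF-Y box) on either strand, where overlapping matches run together.
CDC6: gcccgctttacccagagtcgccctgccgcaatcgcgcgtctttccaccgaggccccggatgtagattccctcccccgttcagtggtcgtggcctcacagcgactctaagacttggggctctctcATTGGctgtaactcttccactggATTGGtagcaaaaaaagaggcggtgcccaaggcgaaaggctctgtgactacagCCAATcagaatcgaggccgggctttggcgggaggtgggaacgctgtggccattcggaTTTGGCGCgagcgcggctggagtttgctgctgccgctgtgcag
E2F1: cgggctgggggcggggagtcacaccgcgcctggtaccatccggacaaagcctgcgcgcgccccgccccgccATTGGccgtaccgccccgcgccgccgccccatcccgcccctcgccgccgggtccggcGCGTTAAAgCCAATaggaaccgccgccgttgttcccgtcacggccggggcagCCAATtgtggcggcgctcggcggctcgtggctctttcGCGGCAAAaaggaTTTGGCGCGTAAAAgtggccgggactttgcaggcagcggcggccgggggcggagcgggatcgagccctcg

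The *CDC6* window holds 1 E2F match and 3 CCAAT matches, and the *E2F1* window 4 and 3. Of the 44 DNA replication genes that fell and have a promoter in the table, 21 (47.7%) hold the E2F letters, against 10.2% of promoters of all genes tested and 6.90% of all 27305 promoters. Over all genes lower at 24 h the share was 12.2%. Nearly all members of the list fell, so its share describes the list as much as the fall. Such a match describes the letters and is not a bound site.

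Mitotic genes were lower too, with a smaller median. Of 80 tested, 58 were lower and none was higher by edgeR (median -0.46). *AURKB*, the kinase of the chromosomal passenger complex, had 56.8 and 69.7 CPM at 24 h, against 157 and 144 CPM at 6 h. *KIF18B*, a kinesin that shortens astral microtubules, had 66.4 and 73.2 CPM at 24 h, against 148 and 146 CPM at 6 h, and the kinetochore subunit *CENPU* had 73.0 and 68.2 CPM at 24 h, against 140.1 and 143 CPM at 6 h. Separation by time was clear in all of them, with differences of -1.25, -1.07 and -1.002. The central mitotic genes gave smaller differences or none. *CDK1* fell by 0.72 and *PLK1* by 0.47 on the log2 scale, whereas *CCNB1*, cyclin B1, had 227 and 226 CPM at 24 h, against 225 and 226 CPM at 6 h and did not pass the test (log2 difference 0.01, SE 0.08, adjusted p = 0.927). With all 10 libraries in the fit 39 members fell.

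The *KIF18B* promoter (chr17:44947724-44948023, minus strand) is shown as an example of a mitotic window, with TTTGAA (CHR, the cell cycle homology region) and CCAAT in capitals.
KIF18B: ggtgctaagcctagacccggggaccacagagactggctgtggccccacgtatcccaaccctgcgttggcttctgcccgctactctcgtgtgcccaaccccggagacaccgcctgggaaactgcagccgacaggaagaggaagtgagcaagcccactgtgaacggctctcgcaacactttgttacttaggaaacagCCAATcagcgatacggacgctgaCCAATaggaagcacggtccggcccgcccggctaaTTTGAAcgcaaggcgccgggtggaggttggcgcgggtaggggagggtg

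It holds 1 CHR match and 2 CCAAT matches. Among the 44 mitotic genes that fell and have a promoter, 27 (61.4%) hold the CHR letters and 32 (72.7%) the CCAAT letters, against 10% and 36.3% of promoters of all genes tested. Over all genes lower at 24 h the shares were 10.3% and 39.6%, and those of the list describe the list as much as the fall.

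**Figure D3:**
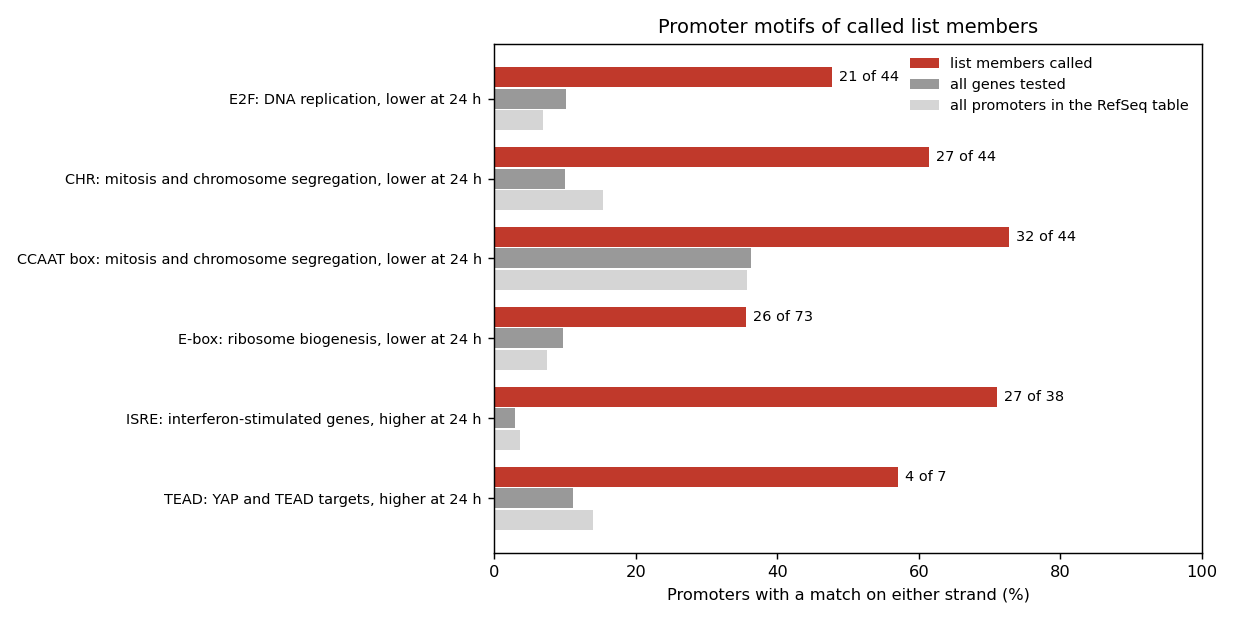
Share of promoters with a match on either strand, for called members of 5 lists, for all genes tested and for all promoters of the RefSeq table, with the number of matching promoters beside each list bar. The list bars run from 35.6% to 72.7%, and no test was made of them.

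CDK inhibitors and genes of resting cells were mixed. Of 18 tested, 10 rose and 3 fell (median 0.26), shares of 55.6% and 16.7%, against 22.9% and 23.6% over all genes. *CDKN1A*, the inhibitor p21, had 55.9 and 56.5 CPM at 24 h, against 118 and 124 CPM at 6 h, a fall of 1.10 on the log2 scale (adjusted p = 2.84e-15). *CCNG2*, an unconventional cyclin of arrested cells, had 100.2 and 98.3 CPM at 24 h, against 44.8 and 43.4 CPM at 6 h, and *TP53INP1*, a stress gene from the list of p53 targets, had 14.1 and 12.4 CPM at 24 h, against 3.04 and 2.149 CPM at 6 h. Both were higher in each 24 h library, by 1.17 and 2.36. *CDKN1B*, the inhibitor p27, had 83.2 and 81.6 CPM at 24 h, against 71.9 and 66.8 CPM at 6 h and rose slightly (log2 difference 0.25, SE 0.09, adjusted p = 0.0134). *DYRK1B*, a kinase that holds cells in quiescence, had 42.9 and 47.5 CPM at 24 h, against 14.4 and 16.5 CPM at 6 h, a rise of 1.55.

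Genes that build ribosomes fell. Of 115 ribosome biogenesis genes, 88 were lower and 2 higher (median -0.53). *MRTO4*, which helps to assemble the large subunit stalk, had 41.3 and 41.2 CPM at 24 h, against 103 and 106 CPM at 6 h. *BOP1*, of the PeBoW complex, had 108 and 107 CPM at 24 h, against 241 and 289 CPM at 6 h, and the nucleolar protein *EBNA1BP2* had 66.8 and 68.2 CPM at 24 h, against 158 and 169 CPM at 6 h. The 24 h libraries of each were at less than the level of either 6 h library, with differences of -1.34, -1.30 and -1.27. *NMD3*, the export adaptor of the large subunit, went the other way with 117 and 95.5 CPM at 24 h, against 69.6 and 67.4 CPM at 6 h (0.64), as did *UTP3* (0.38). Of 36 RNA polymerase I and III genes, 20 fell and 1 rose (median -0.27), with 5 falls when all 10 libraries were fitted and 11 without 6 h replicate 2. Within polymerase III the paralogs parted: *POLR3G*, the form of dividing and stem cells, had 15.8 and 15.1 CPM at 24 h, against 36.6 and 35.9 CPM at 6 h, while *POLR3GL* had 16.01 and 19.1 CPM at 24 h, against 10.6 and 10.8 CPM at 6 h. The differences were -1.23 and 0.72. The subunit *POLR3K* fell by 1.45 on the log2 scale.

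Ribosomal protein genes gave a weaker and less secure fall. By edgeR on the 4 libraries 54 of 80 were lower and none was higher, with a median of -0.27, and *RPL24* had 321 and 312 CPM at 24 h, against 438 and 470.4 CPM at 6 h as 1 of those furthest past the threshold (log2 difference -0.52, SE 0.08, adjusted p = 7.29e-07). The count was 0 by edgeR with all 10 libraries in the fit, where 12 genes had an unadjusted p under 0.05 and the median was -0.28, 62 by DESeq2 on the 4 libraries, and 32 without the 6 h replicate 2. Many ribosomal protein genes have processed pseudogenes that can share their reads. Mitochondrially encoded mRNAs held 6.80% and 5.55% of counts at 24 h, against 4.91% and 5.47% at 6 h, and the part of that share in these small falls was not tested. *MYC* had 70.9 and 81.6 CPM at 24 h, against 74.4 and 72.5 CPM at 6 h and did not pass the test, while *MXI1* and *MXD4*, which bind MAX and oppose MYC, rose by 1.18 and 1.18.

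The *MRTO4* promoter (chr1:19251555-19251854, plus strand) is given because it holds the E-box letters, CACGTG, in capitals, which 26 of 73 fallen ribosome biogenesis genes with a promoter share (35.6%, against 9.68% of promoters of all genes tested). Over all genes lower at 24 h the share was 10.4%, and that of the list describes the list as much as the fall.
MRTO4: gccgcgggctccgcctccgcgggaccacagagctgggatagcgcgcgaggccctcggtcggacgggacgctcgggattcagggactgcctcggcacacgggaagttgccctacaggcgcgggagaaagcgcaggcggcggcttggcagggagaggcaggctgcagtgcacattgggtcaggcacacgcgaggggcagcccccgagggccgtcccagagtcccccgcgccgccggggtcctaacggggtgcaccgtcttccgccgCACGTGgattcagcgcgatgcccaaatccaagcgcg

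Interferon-stimulated genes rose together. Of 47 tested, 45 rose and none fell by edgeR (median 1.01), where 22.9% of all genes were higher. *IFI44L* had 176 and 187 CPM at 24 h, against 44.8 and 39.9 CPM at 6 h. *OAS2*, which makes the messenger that switches on RNase L, had 148 and 155 CPM at 24 h, against 38.4 and 37.5 CPM at 6 h, and its relative *OAS1* had 138 and 129 CPM at 24 h, against 44.7 and 44.1 CPM at 6 h. All 3 genes were several-fold higher in both 24 h libraries, with differences of 2.105 (SE 0.09, adjusted p = 3.90e-25), 1.998 (SE 0.09) and 1.60 (SE 0.09). The dynamin-like antiviral protein *MX1* had 83.8 and 87.2 CPM at 24 h, against 28.7 and 28.5 CPM at 6 h, and *IFIT1*, which binds foreign RNA caps, had 463 and 440.3 CPM at 24 h, against 168 and 167 CPM at 6 h. Across the study the *IFI44L* levels were 129 and 126 CPM at 0 h, 44.8 and 39.9 CPM at 6 h, 93.7 and 77.3 CPM at 12 h, 176 and 187 CPM at 24 h, and 347 and 389 CPM at 48 h. The 6 h libraries were the lowest of the 10, so the difference between 24 h and 6 h starts from a level below that of 0 h. The count of members that rose was 37 to 45 across the alternatives. Among 32 STAT and IRF factors, guanylate-binding proteins and MHC class I genes, 13 rose and 2 fell (median 0.21). The guanylate-binding protein *GBP2* had 219 and 207 CPM at 24 h, against 44.4 and 44.2 CPM at 6 h, a rise of 2.27. *STAT2*, a factor of the type I interferon response, had 94.0 and 110.4 CPM at 24 h, against 62.0 and 52.0 CPM at 6 h, a rise of 0.85. *TAP2*, a subunit of the peptide transporter of antigen presentation, fell (log2 difference -1.19, SE 0.22, adjusted p = 1.34e-05).

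The *IFI44L* promoter (chr1:78620198-78620497, plus strand) is printed because it holds 2 copies of the interferon response letters (ISRE: GAAA, any 2 bases, GAAA), in capitals.
IFI44L: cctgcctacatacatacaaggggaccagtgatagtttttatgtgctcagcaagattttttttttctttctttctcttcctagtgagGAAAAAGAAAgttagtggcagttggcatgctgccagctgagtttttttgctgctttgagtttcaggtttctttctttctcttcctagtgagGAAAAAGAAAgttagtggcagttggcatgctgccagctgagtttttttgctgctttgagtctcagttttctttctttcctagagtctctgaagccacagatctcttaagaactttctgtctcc

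Of 38 risen interferon-stimulated genes with a promoter in the table, 27 (71.1%) hold these letters, against 2.91% of promoters of all genes tested. Nearly all members rose, so this share describes the list as much as the rise.

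Genes of NF-kappaB, chemokines and interleukins were spread in both directions. Of 43 tested, 14 rose and 6 fell (median 0.43), or 5 and 2 when all 10 libraries were fitted. The shares on the 4 libraries were 32.6% and 14%, against 22.9% and 23.6% over all genes. *ICAM1*, a leukocyte adhesion receptor, had 4.56 and 5.59 CPM at 24 h, against 1.14 and 1.12 CPM at 6 h, and *CSF1*, the macrophage growth factor, had 270.1 and 283 CPM at 24 h, against 131 and 141 CPM at 6 h. The rises were 2.17 and 1.03, and *PTGS2*, the inducible cyclooxygenase, rose by 1.34. *IL11* was the largest fall, as given above.

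Matrix genes changed in both directions. Among 58 matrix collagens and glycoproteins tested, 23 rose and 11 fell (median 0.23). The shares were 39.7% and 19%, against 22.9% and 23.6% over all genes. *FN1*, fibronectin, had 729.7 and 786 CPM at 24 h, against 390.2 and 414 CPM at 6 h. *LAMA5*, the laminin alpha chain of basement membranes, had 584 and 602 CPM at 24 h, against 248 and 276 CPM at 6 h, and the transmembrane collagen *COL13A1* had 423 and 469 CPM at 24 h, against 197 and 196 CPM at 6 h. Each was higher in both 24 h libraries, by 0.92 (SE 0.08), 1.18 (SE 0.08) and 1.19 (SE 0.08). *CCDC80* (-0.91), the fibril-associated collagen *COL12A1* (-0.82) and the basement membrane collagen *COL4A2* (-0.46) fell. Enzymes that modify collagen split as well, with 10 of 26 higher and 7 lower (median -0.05). These are shares of 38.5% and 26.9%, the latter near that over all genes. *LOX*, lysyl oxidase, had 54.6 and 48.2 CPM at 24 h, against 25.8 and 25.7 CPM at 6 h, a rise of 1.003, and the lysyl hydroxylase *PLOD2* rose by 0.76, while its relative *PLOD3* fell by 0.63 and transglutaminase *TGM2* by 1.05 on the log2 scale.

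Matrix proteases and their inhibitors counted 18 rises and 9 falls among 49 tested (median 0.13), with 8 rises and 4 falls when all 10 libraries were fitted. The shares on the 4 libraries were 36.7% and 18.4%, against 22.9% and 23.6% over all genes. *TIMP3*, an inhibitor of metalloproteinases that is bound to matrix, had 125 and 109 CPM at 24 h, against 34.0 and 37.6 CPM at 6 h, and *TIMP4* had 27.9 and 24.2 CPM at 24 h, against 8.92 and 9.60 CPM at 6 h. Both inhibitors were higher at 24 h (1.71 and 1.498). *ADAMTS1*, a metalloproteinase that cleaves proteoglycans, had 0.875 and 1.18 CPM at 24 h, against 6.36 and 7.12 CPM at 6 h. It fell by 2.71 on the log2 scale. *MMP3*, stromelysin-1, was near the limit of detection with 0.636 and 0.545 CPM at 24 h, against 1.63 and 1.21 CPM at 6 h. Its difference of -1.25 (SE 0.48, adjusted p = 0.0305) passed the test on the 4 libraries but not without 24 h replicate 1, 24 h replicate 2 or 6 h replicate 1.

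Genes of the TGF-beta and activin axis gave 10 rises and 6 falls among 32 (median 0.12), shares of 31.2% and 18.8%, against 22.9% and 23.6% over all genes. *INHBB*, the activin B chain, had 36.5 and 39.2 CPM at 24 h, against 7.39 and 7.39 CPM at 6 h, and *TGFB2* had 44.3 and 39.8 CPM at 24 h, against 15.9 and 18.0 CPM at 6 h. Both ligands were higher, by 2.36 and 1.31, whereas *PMEPA1*, a feedback inhibitor of the pathway, had 27.8 and 25.2 CPM at 24 h, against 80.9 and 86.4 CPM at 6 h and fell by 1.65 on the log2 scale. The activin antagonists *FST* (-0.78) and *FSTL3* (-0.84) fell too. Of 43 guidance genes, 20 rose (46.5%) and 10 fell (23.3%), with a median of 0.40. The share that fell was near the 23.6% over all genes. The semaphorin receptor *PLXND1* had 212 and 219 CPM at 24 h, against 83.9 and 91.8 CPM at 6 h and rose by 1.30, and the coreceptor *NRP2* had 3.998 and 4.14 CPM at 24 h, against 11.8 and 11.6 CPM at 6 h and fell by 1.52 on the log2 scale. *PLXNA2* and the ligand *SEMA3C* rose by 1.002 and 1.04.

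Epithelial and secretory markers rose more often than they fell. Of 28 luminal and secretory markers, 18 passed the filter on low counts, and of these 11 rose and 1 fell (median 0.73). The summed counts of all 28 made up 0.221% and 0.233% of all counts at 24 h, against 0.109% and 0.115% at 6 h. Most of that rise in the sum came from the mucins *MUC5B* and *MUC5AC*, whose levels are given above. Apart from both mucins, *AGR2*, a disulfide isomerase that mucin folding needs, had 56.4 and 55.0 CPM at 24 h, against 12.1 and 10.9 CPM at 6 h, a rise of 2.28 (SE 0.11). *SPDEF* and *ELF3*, ETS family factors of secretory and epithelial cells, rose by 1.51 and 3.97, with *ELF3* at 1.37 and 1.93 CPM at 24 h, against 0.163 and 0.0448 CPM at 6 h. The luminal factors *GATA3* (0.21, adjusted p = 0.279) and *FOXA1* (-0.27, adjusted p = 0.128) did not pass the test, the keratin *KRT18* fell (-0.36), and *CDH1* stayed at 0 counts. Among 22 genes of EMT and adhesion, 9 rose and 6 fell (median 0.28), or 5 and 2 when all 10 libraries were fitted. The shares on the 4 libraries were 40.9% and 27.3%, against 22.9% and 23.6% over all genes. *CDH11*, a mesenchymal cadherin, had 252 and 232 CPM at 24 h, against 48.96 and 50.1 CPM at 6 h, a rise of 2.29, and the tight junction gene *CLDN7* had 10.3 and 9.66 CPM at 24 h, against 2.81 and 3.63 CPM at 6 h, a rise of 1.63. *SNAI1*, the transcription factor Snail, had 7.12 and 7.41 CPM at 24 h, against 10.2 and 10.6 CPM at 6 h and fell (log2 difference -0.52, SE 0.17, adjusted p = 0.0104). Vimentin, given above, fell by 0.26 on the log2 scale, a call that was lost without 24 h replicate 2 or 6 h replicate 1.

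The ERK-linked genes did not move as 1 block. Of 23 tested, 11 were higher and 5 lower (median 0.21). The share that was higher was 47.8%, against 22.9% over all genes, and the share that was lower, 21.7%, was near the 23.6% over all genes. *DUSP6*, the cytoplasmic ERK phosphatase, had 587 and 577 CPM at 24 h, against 212 and 195 CPM at 6 h. *SPRY1*, a Sprouty inhibitor of receptor signaling, had 75.8 and 78.4 CPM at 24 h, against 25.1 and 23.1 CPM at 6 h, and the ETS factor *ETV1* had 229 and 211 CPM at 24 h, against 84.3 and 84.1 CPM at 6 h. Those rose by 1.52 (SE 0.08), 1.68 (SE 0.10) and 1.39 (SE 0.08), and *SPRY4* by 1.30. In contrast, *DUSP1*, a nuclear phosphatase of the MAP kinases that stress also induces, had 269 and 282 CPM at 24 h, against 646 and 627 CPM at 6 h and fell by 1.20 on the log2 scale, and *DUSP7* fell by 0.54. Among 20 AP-1 and immediate early factors 5 were higher and 5 lower, near the shares over all genes (22.9% and 23.6%). Without 24 h replicate 2 or 6 h replicate 1 there were 3 rises, and without 6 h replicate 1 the ERK list had 3 falls. *FOS* had 15.5 and 20.7 CPM at 24 h, against 5.90 and 5.95 CPM at 6 h and *EGR1* had 126 and 152 CPM at 24 h, against 45.3 and 45.8 CPM at 6 h, whereas *FOSL1*, a FOS relative, had 125 and 138 CPM at 24 h, against 244 and 248 CPM at 6 h. The differences were 1.61, 1.62 and -0.90. Over the study *EGR1* levels were 181 and 170.4 CPM at 0 h, 45.3 and 45.8 CPM at 6 h, 55.5 and 60.7 CPM at 12 h, 126 and 152 CPM at 24 h, and 127 and 118 CPM at 48 h. Its 6 h level was thus well under that at 0 h, and its 24 h level lay between those of 6 h and 0 h. For *DUSP1* they were 170.1 and 157 CPM at 0 h, 646 and 627 CPM at 6 h, 495 and 507 CPM at 12 h, 269 and 282 CPM at 24 h, and 186 and 186 CPM at 48 h, so that the 6 h libraries were the highest of the 10.

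YAP and TEAD targets rose more often than they fell. Of 24 tested, 11 rose and 6 fell (median 0.22). The share that rose was 45.8%, against 22.9% over all genes, and the share that fell, 25%, was near the 23.6% over all genes. There were 5 rises and 1 fall when all 10 libraries were fitted, 7 rises without 6 h replicate 1 and 3 falls without 6 h replicate 2. The matricellular genes *CCN1* and *CCN2* had 737 and 826 CPM at 24 h, against 479 and 456 CPM at 6 h, and 191 and 192 CPM at 24 h, against 92.1 and 88.5 CPM at 6 h. They rose by 0.75 and 1.09. The receptor kinase *AXL*, with 510.0 and 396 CPM at 24 h, against 664 and 782 CPM at 6 h, the growth factor carrier *IGFBP3*, with 18.2 and 17.0 CPM at 24 h, against 45.9 and 52.5 CPM at 6 h, and *F3*, tissue factor, with 139 and 151 CPM at 24 h, against 201 and 175 CPM at 6 h, fell by 0.67, 1.48 and 0.37 on the log2 scale. Over the study *CCN2* levels were 381 and 358 CPM at 0 h, 92.1 and 88.5 CPM at 6 h, 64.8 and 98.0 CPM at 12 h, 191 and 192 CPM at 24 h, and 264 and 265 CPM at 48 h. At 24 h they were above 6 h and still below 0 h.

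The *CCN2* promoter (chr6:131951323-131951622, minus strand) is shown for the TEAD letters CATTCC, or GGAATG on the other strand, in capitals.
CCN2: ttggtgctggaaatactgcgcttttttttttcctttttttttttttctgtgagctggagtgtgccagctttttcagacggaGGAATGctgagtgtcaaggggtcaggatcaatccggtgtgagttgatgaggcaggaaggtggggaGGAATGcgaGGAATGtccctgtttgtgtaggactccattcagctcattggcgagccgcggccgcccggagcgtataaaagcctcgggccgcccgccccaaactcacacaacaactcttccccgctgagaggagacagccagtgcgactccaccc

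It holds 3 matches. Of 7 risen YAP targets with a promoter 4 (57.1%) hold the letters, against 11.1% of promoters of all genes tested. Over all genes higher at 24 h the share was 11.9%, and that of the list describes the list as much as the rise.

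SRF and actin contractile genes were mostly lower. Of 30 tested, 19 fell and 2 rose (median -0.40), with 9 falls when all 10 libraries were fitted. *TPM3*, a tropomyosin, had 549 and 545 CPM at 24 h, against 946 and 956 CPM at 6 h, *TAGLN2*, transgelin-2, had 569 and 539 CPM at 24 h, against 895 and 953 CPM at 6 h, and *PFN1*, profilin, had 708 and 768 CPM at 24 h, against 1227 and 1141 CPM at 6 h. Their falls were 0.79, 0.74 and 0.68 on the log2 scale, and beta actin, *ACTB*, fell by 0.66. *CALD1*, caldesmon, and *MYL12A*, a myosin light chain, rose by 0.38 and 0.35. Among 40 filopodia and focal adhesion genes the counts were even, 10 higher and 12 lower, near the shares over all genes. Formins parted here: *FMNL2* had 197 and 195 CPM at 24 h, against 92.1 and 86.4 CPM at 6 h, while *FMNL3* had 22.0 and 20.8 CPM at 24 h, against 39.8 and 40.5 CPM at 6 h. *DIAPH1* and *DIAPH3* fell by 0.64 and 0.74 on the log2 scale.

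Several cytoskeleton and signaling genes that the study follows in treated MDA-MB-231 cells are given by name. *ETS1*, a transcription factor of the ETS family, had 86.5 and 77.3 CPM at 24 h, against 84.4 and 80.9 CPM at 6 h, and the times overlapped (log2 difference -0.01, SE 0.09, adjusted p = 0.946). *CAV1*, caveolin-1, had 637 and 593 CPM at 24 h, against 637 and 641 CPM at 6 h, also overlapping (log2 difference -0.05, SE 0.08, adjusted p = 0.647). Both had been measured higher at 0 h, with 176 and 177 CPM for *ETS1* and 1040.4 and 1024 CPM for *CAV1*. *CDC42*, the GTPase of filopodia, had 337 and 283 CPM at 24 h, against 310.4 and 327 CPM at 6 h, and the formin *DIAPH2* had 20.1 and 21.1 CPM at 24 h, against 20.4 and 20.8 CPM at 6 h. The difference was -0.04 (SE 0.08) and 0.001 (SE 0.12), and neither passed the test. *MYO10*, myosin X, had 104 and 101 CPM at 24 h, against 115 and 117 CPM at 6 h and lay below 6 h in both libraries without passing it (log2 difference -0.17, SE 0.08, adjusted p = 0.0751). *VCL*, vinculin, and *ACTN4*, an alpha-actinin, did not pass it either (0.07 with adjusted p = 0.519, and -0.19 with adjusted p = 0.0968). *RAC1*, with 447 and 406 CPM at 24 h, against 538 and 533 CPM at 6 h, and paxillin, *PXN*, with 88.2 and 84.9 CPM at 24 h, against 110.2 and 121 CPM at 6 h, fell by 0.33 and 0.42 on the log2 scale. *SRC* itself, with 52.0 and 51.4 CPM at 24 h, against 63.7 and 70.8 CPM at 6 h, fell by 0.38 (adjusted p = 5.80e-04). With all 10 libraries in the fit *RAC1* and *SRC* did not pass the test, nor did *SNAI1* and *VIM*. The list of SRC family and other dasatinib target kinases counted 6 rises and 4 falls among 18 (22.9% and 23.6% over all genes), with a rise of 0.70 in the collagen receptor *DDR1* and a fall of 0.50 in *CSK*, the kinase that restrains SRC.

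Receptor kinases and ligands counted 15 rises and 6 falls of 31 (median 0.23), with 9 rises and 2 falls when all 10 libraries were fitted. The shares on the 4 libraries were 48.4% and 19.4%, against 22.9% and 23.6% over all genes. *TGFA*, an EGFR ligand, had 72.4 and 72.0 CPM at 24 h, against 36.1 and 34.4 CPM at 6 h, and *VEGFA* had 175 and 181 CPM at 24 h, against 89.5 and 84.9 CPM at 6 h. Both were higher at 24 h, by 1.04 and 1.03. The receptor *TYRO3* fell by 0.82 and the ligand *GAS6* by 0.66 on the log2 scale, alongside *AXL*, which belongs to the same receptor family.

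FOXO-type and mTORC1-restraining genes were higher. Of 25 tested, 14 rose and 1 fell (median 0.70). *SESN3*, a sestrin that holds back mTORC1, had 44.7 and 41.1 CPM at 24 h, against 16.2 and 17.9 CPM at 6 h, and *BNIP3L*, a mitophagy receptor from the lists of hypoxia and BCL2 family genes, had 160.4 and 144 CPM at 24 h, against 74.8 and 71.2 CPM at 6 h. Their rises were 1.34 (SE 0.11) and 1.06 (SE 0.08). The gene that fell was *TXNIP*, the glucose uptake inhibitor, with 107 and 114 CPM at 24 h, against 220.5 and 206 CPM at 6 h (-0.95). Of 16 clock genes 9 rose and 1 fell (median 0.35), with 4 rises and 0 falls when all 10 libraries were fitted. *BHLHE41* had 10.2 and 8.32 CPM at 24 h, against 3.32 and 2.73 CPM at 6 h and *NPAS2* had 96.7 and 101 CPM at 24 h, against 62.8 and 63.6 CPM at 6 h, rises of 1.62 and 0.65, and no culture clock time is given for the libraries. *KLF9* had 15.5 and 13.2 CPM at 24 h, against 6.83 and 5.39 CPM at 6 h and rose by 1.24, as 1 of 4 Kruppel-like factors among 14 that did. That share, 28.6%, was near the 22.9% over all genes, and 2 of the family rose when all 10 libraries were fitted.

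Lipid genes rose more often than they fell. In lipid efflux, transport and storage 24 of 37 were higher and 2 lower (median 0.42). *LRP1*, an endocytic lipoprotein receptor, had 69.2 and 75.8 CPM at 24 h, against 25.2 and 24.2 CPM at 6 h, and the high density lipoprotein receptor *SCARB1* had 43.0 and 47.3 CPM at 24 h, against 93.2 and 102 CPM at 6 h. *LRP1* rose by 1.56 and *SCARB1* fell by 1.11 on the log2 scale. Among 24 cholesterol genes 13 rose and 4 fell (median 0.33). *HMGCS1*, at the entry of the pathway, had 110.4 and 111 CPM at 24 h, against 57.1 and 55.5 CPM at 6 h, and *MSMO1*, a sterol oxidase of its later part, had 206 and 208 CPM at 24 h, against 116 and 101 CPM at 6 h. Both were higher at 24 h, by 0.98 and 0.94. Of 21 fatty acid genes 10 rose (6 without 24 h replicate 1) and 3 fell, with *SREBF1*, the lipogenic transcription factor, at 192 and 214 CPM at 24 h, against 115 and 114 CPM at 6 h (0.83) and the desaturase *SCD* at 1039 and 921 CPM at 24 h, against 621 and 678 CPM at 6 h (0.60).

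Hypoxia and glycolysis genes gave 21 rises and 3 falls of 40 (median 0.27), with 11 rises and 1 fall when all 10 libraries were fitted. *NDRG1* had 415 and 398 CPM at 24 h, against 178 and 192 CPM at 6 h and *BNIP3* had 256 and 252 CPM at 24 h, against 139 and 140.3 CPM at 6 h, rises of 1.14 and 0.86. Lysosomal genes gave 23 rises (46.9%) and 8 falls (16.3%) of 49, against 22.9% and 23.6% over all genes. Without 6 h replicate 1 there were 14 rises and 5 falls, without 24 h replicate 2 there were 5 falls, and with all 10 libraries fitted there were 5 rises. The protease *CTSD* had 239 and 249 CPM at 24 h, against 132 and 155 CPM at 6 h and rose by 0.77, and *TPP1*, a peptidase, rose by 0.80. Heat shock chaperones fell, 13 of 18 with 2 higher (median -0.54). *HSPA8*, the constitutive HSP70, had 1792 and 1633 CPM at 24 h, against 2938 and 3129.7 CPM at 6 h, and *HSPD1*, the mitochondrial chaperonin, had 629 and 559.6 CPM at 24 h, against 991 and 1023 CPM at 6 h. The falls were 0.82 and 0.76 on the log2 scale. *BAG3*, a cochaperone of selective autophagy, rose by 0.35. Integrated stress and ER stress genes split into 11 rises (30.6%) and 13 falls (36.1%) of 36, against 22.9% and 23.6% over all genes. When all 10 libraries were fitted 4 of them rose and 5 fell. *SEL1L*, an adaptor of ER-associated degradation, had 98.9 and 92.9 CPM at 24 h, against 55.5 and 51.2 CPM at 6 h and rose by 0.85, and *PSAT1*, of serine synthesis, had 114 and 98.5 CPM at 24 h, against 209.6 and 217 CPM at 6 h and fell by 0.998 on the log2 scale.

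In the BCL2 family 10 genes of 19 fell and 5 rose (median -0.31), with 4 falls and 3 rises when all 10 libraries were fitted. On the 4 libraries the share that fell was 52.6%, against 23.6% over all genes. The share that rose, 26.3%, was near the 22.9% over all genes. The antiapoptotic *BCL2* had 5.19 and 6.54 CPM at 24 h, against 15.9 and 14.9 CPM at 6 h and the pore former *BAX* had 61.7 and 67.0 CPM at 24 h, against 105 and 106 CPM at 6 h. Both fell, by 1.39 and 0.71 on the log2 scale. *BMF*, a BH3-only member linked to the cytoskeleton, had 5.39 and 4.07 CPM at 24 h, against 1.65 and 1.72 CPM at 6 h and rose by 1.49. Among 26 p53 targets the counts were 9 higher and 7 lower, where 22.9% and 23.6% of all genes were. *AEN*, a nuclease, fell by 0.91 on the log2 scale, and *TNFRSF10B*, a TRAIL receptor, rose by 0.68.

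Some of the genes that fell were high at 6 h beside every other time. *IL11* levels were 87.0 and 96.2 CPM at 0 h, 496 and 529 CPM at 6 h, 152 and 256 CPM at 12 h, 103 and 109 CPM at 24 h, and 140.3 and 129 CPM at 48 h. For *SLC7A5* they were 366 and 377 CPM at 0 h, 803 and 969 CPM at 6 h, 673 and 586 CPM at 12 h, 295 and 261 CPM at 24 h, and 252 and 221 CPM at 48 h. The *CDKN1A* levels were 49.6 and 56.3 CPM at 0 h, 118 and 124 CPM at 6 h, 54.4 and 98.0 CPM at 12 h, 55.9 and 56.5 CPM at 24 h, and 51.8 and 49.7 CPM at 48 h. In all 3 genes both 6 h libraries were the highest of the 10, and the 24 h libraries lay near or below the 0 h level. *CDC6* took another course, with 182 and 181 CPM at 0 h, 189 and 179 CPM at 6 h, 136 and 136 CPM at 12 h, 66.5 and 66.1 CPM at 24 h, and 69.0 and 64.0 CPM at 48 h. Its 6 h and 0 h levels overlapped and the 24 h and 48 h levels were low. *MUC5B* continued upward, with 23.4 and 21.8 CPM at 0 h, 36.3 and 43.4 CPM at 6 h, 109 and 65.7 CPM at 12 h, 379.9 and 447 CPM at 24 h, and 1984 and 1906 CPM at 48 h. Its 48 h libraries were the highest of all. Library 1 of 12 h stands apart from the other libraries in this study (correlation 0.9763 with its replicate), and its levels carry that limit.

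**Figure D4:**
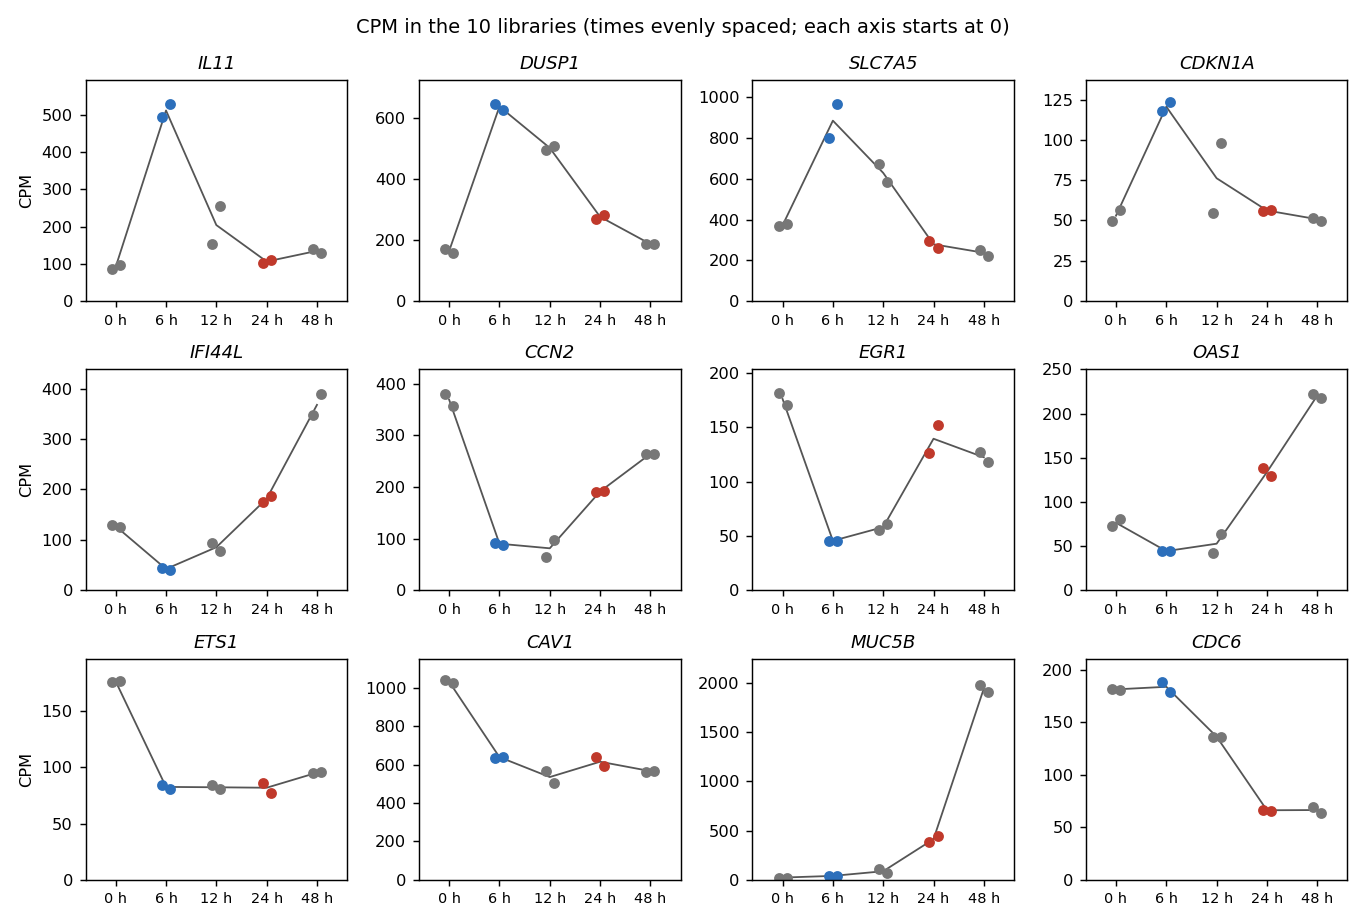
CPM of 12 genes at 0, 6, 12, 24 and 48 h, with a point for each of the 2 libraries of a time, a line through the means and the times evenly spaced on the x axis. *IL11*, *DUSP1*, *SLC7A5* and *CDKN1A* peak at 6 h, *IFI44L*, *CCN2*, *EGR1* and *OAS1* are low there or at 12 h, *ETS1* and *CAV1* are level between 6 h and 24 h, and *MUC5B* and *CDC6* move in opposite directions.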

How the data were processed

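RNA from MDA-MB-231 cells was sequenced as paired reads in 10 libraries, 2 at each of 5 times. Per the labels, the authors used FastQC and MultiQC for read quality, Trim Galore for trimming, STAR 2.5.2b for alignment (hg38) and featureCounts for counts per gene. The annotation release and the strand setting are not given in the sources used here, so a gene and an antisense or overlapping partner cannot be told apart. Raw counts for 36687 gene symbols and TPM, which are scaled by length and library total, were deposited as separate tables. No column of another sample was present. The dose was taken from the study and the groups from the labels.

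The counts of the 4 libraries at 24 h and 6 h were filtered by edgeR's filterByExpr and scaled by TMM, leaving 14831 genes, and fitted with edgeR 4.0.16 in R 4.3.3 by the robust quasi-likelihood test with 1 mean per time. Each gene had 2 residual degrees of freedom and the median prior was 45.5, so the spread was largely shared across genes. The SE is the size of the log2 difference over the square root of F. Printed CPM is scaled over the 10 libraries. On simulated data for 24 h against 6 h (14573 genes), the test recovered 57.8% of 64 genes changed 1.5-fold, 71.4% of 70 changed 2-fold and 92.4% of 66 changed 4-fold, and called 8 unchanged genes. The share of changed genes there was far under the 46.4% called in the data, so these rates may differ in the data.

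The comparison, the 44 gene lists and the motifs were chosen with earlier results of these data known, and list symbols were matched to the table after it was opened. No set test was made, and lists are described by counts and medians beside those of all genes. Named genes were the 10 largest changes in each direction among changed genes whose average log2 CPM reached 2 and whose libraries were apart by time, in each list the 3 members (or fewer) per direction of smallest adjusted p, genes the study followed, and line markers. *MCM2*, *MCM7*, *PCNA*, *CDC45*, *CDK1*, *PLK1*, *CCNB1*, *CDKN1B*, *MYC*, *MX1*, *IFIT1*, *SPDEF*, *ELF3*, *GATA3*, *FOXA1*, *SPRY4*, *ACTB*, *SCD* and the genes and families under other observations were chosen after their values were seen. A few genes that the rule names are not reported here. Promoters are from RefSeq (GRCh38.p14), where 175 of the 229 named genes had an entry, and both strands were searched.

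The alternatives were no filter, size factors of the RLE type, DESeq2 1.42.0, edgeR on all 10 libraries or on 8 without 12 h, the replicate number as a block, each library left out in turn, and limma 3.58.1 on log2(TPM + 1) or log2(TPM + 0.1), keeping genes that reached 1 TPM in 2 libraries or, for the first, all genes.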

Additional observations from a re-analysis of the deposited data

How the results depend on the processing

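On the 4 libraries 6885 genes changed, and with 1 library left out 5477 to 6006 (2643 to 2861 higher and 2834 to 3167 lower), 5250 to 5661 of them also called on the 4 libraries, where the lone library of a time is assumed to vary like the others. No filter, RLE size factors, DESeq2 and the 8 libraries without 12 h gave 6053 to 6897. With all 10 libraries in the fit 2933 genes changed, 1416 higher and 1517 lower, 2932 of them also called on the 4 libraries, and 4937 had an unadjusted p under 0.05. That fit includes 12 h replicate 1, which correlates at 0.9763 with its replicate, and without 12 h the count was 6579. Of 63 list counts of at least 3, 40 were lower by over 1.5 times in the fit of 10 libraries. Of the changed genes in the report that the naming rule picked, *AXL*, *BAG3*, *BAX*, *CALD1*, *CCN1*, *CSK*, *CTSD*, *DUSP7*, *F3*, *KRT18*, *MMP3*, *MYL12A*, *ORC4*, *PFN1*, *POLD4*, *POLR3GL*, *RAC1*, *RPL24*, *SNAI1*, *SRC*, *TAGLN2*, *TAP2*, *UTP3* and *VIM* did not pass there, with their direction kept. Genes chosen after their values were seen, such as *CDKN1B* and *PLK1*, were not followed in the alternatives. On TPM, limma called 2197 genes lower at log2(TPM + 1) and 2176 at log2(TPM + 0.1) with a minimum of 1 TPM, and with no minimum 3770 changed, 2227 higher and 1543 lower. The higher share of calls was 59.1% at log2(TPM + 1), against 49.3% on counts. The cause was not tested. With the replicate number as a block 6463 genes changed, 6431 of them also called without it. The 24 h and 6 h replicates of a number did not deviate together (correlation -0.0953), so the number was not taken as a pairing.

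Among genes that the naming rule picked, those that reversed had no call in the 4 libraries. *DIAPH2* was -0.00718 with no filter, -0.000326 with RLE factors, -0.00235 by DESeq2, -0.00266 with 10 libraries, -0.00521 with 8, and -0.0384 to 0.0331 with 1 library left out. *CDC42* was -0.173 to 0.0807 with 1 library left out, 0.05216 at log2(TPM + 1) with or without the minimum and 0.0528 at log2(TPM + 0.1). *ETS1* was -0.0964 to 0.06692 with 1 library left out, 0.0818 at log2(TPM + 1) and 0.0837 at log2(TPM + 0.1). *CAV1* was 0.04241 at log2(TPM + 1) and 0.04248 at log2(TPM + 0.1). *EPCAM* was -0.0968 to 0.225 with 1 library left out.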

Other observations

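A few genes outside the lists are described, picked with their values in view. *JUP*, the junction protein plakoglobin, had 638 and 617 CPM at 24 h, against 102 and 104 CPM at 6 h. *AQP3*, a water and glycerol channel, had 180.0 and 191 CPM at 24 h, against 33.9 and 32.3 CPM at 6 h, and *SCNN1A*, a subunit of the epithelial sodium channel, had 9.63 and 9.04 CPM at 24 h, against 2.53 and 1.54 CPM at 6 h. All 3 were higher in both 24 h libraries, by 2.61 (SE 0.09), 2.49 (SE 0.09) and 2.20 (SE 0.23), while *CDH1* was at 0 counts. *PTGES*, a prostaglandin E synthase, had 239.5 and 253 CPM at 24 h, against 63.2 and 70.5 CPM at 6 h, and *HPGD*, which degrades prostaglandins, had 9.13 and 7.82 CPM at 24 h, against 2.46 and 2.69 CPM at 6 h. Both rose, by 1.88 and 1.72. The aldo-keto reductases *AKR1C1* and *AKR1C3* rose by 1.93 and 1.71, and they share sequence with each other, so their reads may be split. *IGFBP4*, a secreted carrier of insulin-like growth factors, had 4007 and 3929 CPM at 24 h, against 2168 and 2426 CPM at 6 h, a rise of 0.79.

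Gene families taken whole by symbol, after their values were seen, moved in both directions. Their counts are to be set beside the 22.9% of all genes that were higher and the 23.6% that were lower. Of 37 proteasome subunits 28 fell and 3 rose (median -0.45). Of 77 mitochondrial ribosomal proteins 57 fell (median -0.38), of 18 cytosolic tRNA synthetases 14 fell and 2 rose, of 60 translation initiation factors 35 fell and 9 rose, of 9 CCT chaperonin subunits 8 fell, of 14 tubulin chains 7 fell and 2 rose, and of 12 RNA polymerase II subunits 11 fell. Of 37 nuclear genes for complex I of the respiratory chain 9 were lower (median -0.06), a share of 24.3% that was near the 23.6% over all genes. Among replication-dependent histone genes 8 of 28 were higher (28.6%, against 22.9% over all genes) and 2 lower (median 0.75), and these near-identical genes may share reads. Of 240 LINC noncoding RNAs 54 rose and 14 fell (median 0.41), so that the share that rose, 22.5%, was near the 22.9% over all genes while the share that fell, 5.83%, was under 23.6%. *SRM*, which follows *ODC1* in polyamine synthesis, had 103 and 121 CPM at 24 h, against 315 and 316 CPM at 6 h, a fall of 1.49 on the log2 scale.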
